A study of Mus musculus with 26 samples.

Results

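The collagen chain genes encode the alpha chains that join as trimers to form the collagens of the extracellular matrix. The members were the rows of the count table whose symbol was Col, a number, the letter a and a number, with nothing after it, and 44 of the 55391 rows with a gene name met this rule. Sorted by chain type, 11 were fibrillar, 8 were basement membrane and 25 were other chains. Their mRNA was counted in EA1, EA2 and EA3, which are 3 murine lung cancer cell lines from C57BL/6 mice that carry the EML4-ALK fusion and were labelled with the genotype EML4-ALK. By the study's methods, primary tumours were induced in mouse lung with adenovirus encoding Cas9 and guides to Eml4 and Alk. Each line was cultured with 100 nM alectinib, an inhibitor of the ALK tyrosine kinase, or with 0.1% DMSO as the control, for 1, 2, 3 or 5 days. There was 1 library for each line, treatment and day, which gives 24 libraries and 4 per line and treatment. No library was repeated within a day, so the 4 days served as replicates. All p-values measure the spread between these libraries only, which can hold technical variation and change over the days. Each line is a single isolate, so a difference between lines is one between these isolates.

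Library totals ran from 5780062 to 11732401 counts. A further 2 libraries were labelled EA3 day 7 and, as no other line has that day, entered none of the comparisons, 1 alternative with all 26 libraries excepted. Across 14335 genes they correlated more with EA2 of the same treatment (r = 0.967 for DMSO and 0.986 for alectinib) than with EA3 (0.887 and 0.876). These correlations run across genes, which are not independent replicates. The alternative with all 26 libraries counts the 2 as EA3, so its EA3 values rest in part on libraries that resemble EA2. Levels are given as CPM, counts per unit of library size scaled by TMM factors, always in the order of days 1, 2, 3 and 5. A fold change is the log2 ratio of alectinib to DMSO within line and day, with a standard error (SE), over 4 day pairs a line. This SE was worked back from the fold change and its test statistic, and is not a direct estimate of the fit. Intervals of fold changes and of their differences between lines, and the ± of slopes, were made likewise. They can disagree: for Col3a1 the SE was 0.47 in EA1 and 1.04 in EA3. Yet the interval of EA3 minus EA1 was only -0.58 to 0.81. Unless another test is named, each adjusted p came from the quasi-likelihood test of edgeR, with adjustment by Benjamini-Hochberg over all genes of that fit. Fits on the DMSO or the alectinib libraries alone tested 12886 and 13486 genes. The alectinib effect was tested in the 14264 genes that passed a filter on low counts. The word "called" means an adjusted p under 0.05. Of the 44 chain genes 26 passed that filter and were tested. With the 12 DMSO libraries alone 23 would have passed, and Col3a1, Col5a2 and Col9a3 entered only through the alectinib libraries.

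Fibrillar collagens (types I, II, III, V, XI, XXIV and XXVII) form the tensile fibrils of connective tissue, and are made mainly by mesenchymal cells such as fibroblasts. Types IV, XV and XVIII belong to the basement membrane, the sheet on which epithelial cells rest, and type IV is the network that gives this sheet its shape. The other chains include the beaded microfilaments of type VI, the fibril-associated types XII and XVI, the anchoring fibrils of type VII and the short-chain type VIII. In lung tumours, collagens are found both in tumour cells and, above all, in the surrounding stroma, which a culture of a cell line does not contain. In such bulk libraries, fewer cells of a type and less RNA per cell cannot be told apart.

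The labelled cell type was checked first against marker genes. The 10 epithelial markers together ran from 4643 to 9266 CPM (median 5789) in EA1, from 1814 to 2702 CPM (median 2249) in EA2 and from 4806 to 7118 CPM (median 5534) in EA3 with DMSO. With alectinib they ran from 3259.5 to 5382 CPM (median 3959), from 567 to 1171 CPM (median 993) and from 3082 to 6982 CPM (median 4314) in the same order, so that the sums were lower without overlap in EA2 and overlapped in EA1 and EA3. In EA2 the keratins Krt8 and Krt18 and the transcription factor Grhl2 were called lower and the adhesion protein Cdh1 higher, 3 and 1 of the 10, while 1 was lower and 2 higher in EA1, and 1 lower and 1 higher in EA3, where of all genes tested 11.3% and 13% were called lower and higher in EA2, 14.6% and 19% in EA1, and 15.1% and 17.5% in EA3. The part of this change in the collagen results was not tested. Epcam, an epithelial adhesion protein, stood at 97.4, 145, 75.2 and 211 CPM in EA3 with DMSO, but at 1.46, 3.23, 0.321 and 0.388 CPM in EA1 and 0.627, 0.446, 0.301 and 0.601 CPM in EA2. The 11 lung epithelial markers together ran from 31.7 to 91.1 CPM (median 53.6) with DMSO and 43.5 to 58.2 CPM (median 54.5) with alectinib in EA1, 129.8 to 211 CPM (median 156) and 50.3 to 75.4 CPM (median 67.9) in EA2, and 192 to 271 CPM (median 255) and 59.3 to 90.2 CPM (median 74.4) in EA3. Most of this sum was Aqp5, a water channel of alveolar and airway cells, which was called lower in EA2 and EA3, while Ager, of flat alveolar cells, was detected in every library and called higher in EA3. Sftpa1, a surfactant protein of the lung, had no count in any library, and Sftpc and Nkx2-1, which also define lung epithelium, had at most 1 and 7 counts. The 13 fibroblast markers together ran from 14.3 to 64.2 CPM (median 40.4) with DMSO and from 114 to 236 CPM (median 185) with alectinib in EA1. In EA2 they ran from 88.4 to 103 CPM (median 96.7) and from 43.3 to 191 CPM (median 104), so that the groups overlapped. In EA3 they ran from 4.94 to 11.84 CPM (median 7.71) and from 6.47 to 87.8 CPM (median 10.4), and the highest value was the alectinib library of day 5. That library stood apart, with 48.4 CPM of Dcn, 12.7 CPM of Postn and 6.71 CPM of Pdgfrb, so EA3 results that rest on it are given with and without day 5. Of the 5 fibroblast markers that were tested, 3 were called higher in EA1 and 2 in EA3, and 1 was called lower in EA2, where 19% and 17.5% of all genes tested were called higher in EA1 and EA3 and 11.3% lower in EA2. Tcf21 had no count in any library, and Fap had at most 1. The endothelial and leukocyte lists, summed, stayed under 10 and 95 CPM in every library.

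The chromosomal setting of the members is shown for the genes on which the results turn, with the bases just upstream of their start sites. Col3a1 had one of the widest differences between alectinib and DMSO, Col5a1 was called in every line, Col11a1 rose in EA2 and EA3, and Col4a3 and Col4a4 start head to head and moved together in EA3. The reference is GRCm38.p6, the starts are those of RefSeq, except that of Col4a3, which comes from GENCODE vM21, and each sequence reads 5′ to 3′ along the stated strand. Capitals mark a GC box (the letters GGGCGG), the box named for its letters CCAAT, or an AP-1 site (either TGAGTCA or, equally, TGACTCA), each searched on both strands, and no printed match overlaps another.
Col3a1, 250 bases at chr1:45311288-45311537, + strand: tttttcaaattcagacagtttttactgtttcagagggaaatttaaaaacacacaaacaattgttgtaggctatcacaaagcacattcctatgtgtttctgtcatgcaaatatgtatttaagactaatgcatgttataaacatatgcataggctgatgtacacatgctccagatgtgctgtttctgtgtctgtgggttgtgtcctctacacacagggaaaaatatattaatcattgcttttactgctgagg
Col5a1, 250 bases at chr2:27886175-27886424, + strand: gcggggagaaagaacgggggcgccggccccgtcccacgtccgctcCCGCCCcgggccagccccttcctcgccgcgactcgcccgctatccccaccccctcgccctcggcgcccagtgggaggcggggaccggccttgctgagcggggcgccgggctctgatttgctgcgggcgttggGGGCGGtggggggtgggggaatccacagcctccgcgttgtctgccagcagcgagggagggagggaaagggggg
Col11a1, 250 bases at chr3:114030290-114030539, + strand: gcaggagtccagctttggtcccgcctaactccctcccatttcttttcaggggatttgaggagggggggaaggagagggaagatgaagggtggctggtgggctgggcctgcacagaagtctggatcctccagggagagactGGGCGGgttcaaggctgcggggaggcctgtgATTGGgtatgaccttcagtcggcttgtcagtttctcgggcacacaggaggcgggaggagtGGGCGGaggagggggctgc
Col4a3 and Col4a4, the 71 bases between their starts at chr1:82586850-82586920, - strand: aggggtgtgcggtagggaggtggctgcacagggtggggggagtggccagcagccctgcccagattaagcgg
The Col3a1 window held none of these motifs and was 35.2% G or C. The Col5a1 window was 76.4% G or C with 2 GC boxes, and the Col11a1 window was 62.4% G or C with 2 GC boxes and 1 CCAAT box. The interval between Col4a3 and Col4a4 held none of the motifs and was 69.0% G or C. Windows were found for 35 of the 44 chain genes, 38 in all, because some genes have more than 1 RefSeq start. A GC box was present in 57.9% of these 38 windows against 32.7% of all 32851 windows of the same length, a CCAAT box in 34.2% against 33.8%, and an AP-1 site in 2.63% against 4.46%. A match is a run of letters and does not show that a factor binds there.

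Every fibrillar chain called in a line was called higher with alectinib there, and basement membrane chains were called higher or lower, depending on the chain and the line. Of the 26 chain genes tested, 13 were called higher and 0 lower in EA1, 11 higher and 2 lower in EA2, and 10 higher and 1 lower in EA3 (quasi-likelihood test of edgeR, Benjamini-Hochberg adjusted). Among all genes tested, 19% were called higher and 14.6% lower in EA1, 13% higher and 11.3% lower in EA2, and 17.5% higher and 15.1% lower in EA3. By DESeq2's Wald test 0 chain genes were also called lower in EA1, and at an unadjusted p under 0.05 by edgeR the count was 0, where 19.6% of all genes were lower. The median log2 fold change over the 26 was 1.47, 1.499 and 0.44 for EA1, EA2 and EA3, against 0.06, 0 and 0.07 over all genes tested. The fibrillar chains gave 6, 7 and 7 calls of 10 in EA1, EA2 and EA3, all higher. Of these, Col3a1 and Col5a2 were tested only because of their alectinib levels, and over the 8 fibrillar chains that pass the filter with DMSO alone the calls were 4, 5 and 5. Of 7 basement membrane chains, EA1 had 2 higher, EA2 had 1 higher and 2 lower, and EA3 had 2 higher and 1 lower. The other chains gave 5, 3 and 1 calls of 9, all higher. Col1a1, Col1a2, Col3a1, Col5a1, Col5a2 and Col12a1 were called higher in all 3 lines, 6 of 26 where the share of all genes tested was 5.78%. Without the EA3 libraries of day 5, Col1a2 and Col3a1 lost their EA3 calls, so that 4 were called higher in all lines, and 9 chain genes were called higher in EA3. Over the 23 chain genes that pass with DMSO alone, 11, 9 and 8 were called higher in EA1, EA2 and EA3, where 17.6%, 13.1% and 16.8% of the 12886 genes passing in the same way were, and 4 were called higher in all lines, where 5.73% were. The size of the response differed between lines for 10 of 26 chain genes, against 6.84% of all genes, and for 9 of the 23 that pass with DMSO alone, against 7.13%. Leaving out day 3 left 2 of these 10 differences called, those of Col4a1 and Col4a2, leaving out day 2 left 5, and ignoring the day as a block left 4. The share of all genes called in those reduced fits is not given here.

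**Figure D1:**
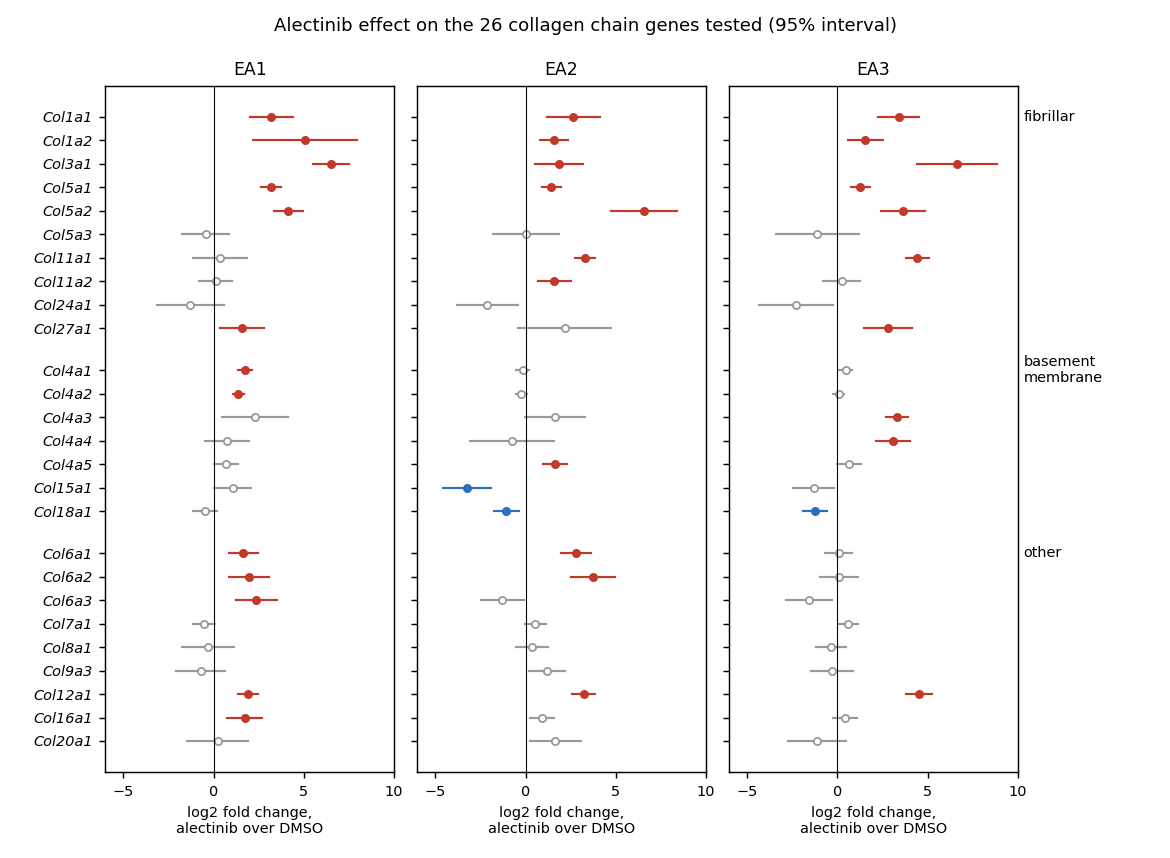
The log2 fold change of alectinib over DMSO (x axis) is plotted for the 26 tested chain genes (y axis, grouped by chain type) in 1 panel per line, with 95% intervals as bars, red for called higher, blue for called lower and open grey points for not called. Fibrillar chains lie mostly to the right of 0, with calls for 6, 7 and 7 of 10 in EA1, EA2 and EA3, while Col18a1 and Col15a1 lie left of 0 where they were called.

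Type I collagen, the main fibril of connective tissue, is a trimer of Col1a1 and Col1a2 chains. In EA1, Col1a1 (chr11:94936224-94953042, + strand) stood at 4.60, 4.79, 1.39 and 5.82 CPM with DMSO and 13.03, 36.7, 61.3 and 58.6 CPM with alectinib. In EA2 its level was low, at 1.16, 0.297, 1.10 and 0.859 CPM with DMSO and 3.46, 2.30, 4.06 and 15.6 CPM with alectinib. EA3 had the most, with 16.7, 14.3, 10.7 and 7.74 CPM with DMSO and 77.8, 128, 147 and 180.3 CPM with alectinib. In each line every alectinib library exceeded every DMSO library. The log2 fold change was 3.21 ± 0.55 (SE, adjusted p = 0.000877) in EA1, 2.64 ± 0.68 (SE, adjusted p = 0.0124) in EA2 and 3.395 ± 0.52 (SE, adjusted p = 0.000411) in EA3. The EA2 value depended on day 5, without which it was 1.90 with an adjusted p of 0.0953, and it also missed the threshold without day 2 (adjusted p = 0.05). The responses of the lines did not differ by the test used (adjusted p = 0.812), and the interval of EA2 minus EA1 ran from -2.53 to 1.40 on the log2 scale.

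Col1a2 (chr6:4504814-4541544, + strand), the partner chain, was distributed otherwise. In EA1 it had no count in any DMSO library and stood at 0, 0.122, 0.725 and 1.01 CPM with alectinib, which is 20 counts in all. Measured against a floor of 3 counts over the 4 DMSO libraries, it was at least 5.92-fold higher with alectinib (adjusted p = 0.0132), a call that was lost without day 3 (adjusted p = 0.0848), and without day 5 the bound was 2.64-fold. EA2, the line lowest in Col1a1, had the most Col1a2, at 21.4, 16.2, 15.0 and 15.6 CPM with DMSO and 71.4, 37.5, 29.0 and 84.0 CPM with alectinib. All EA2 alectinib libraries exceeded all of its DMSO libraries, and the log2 fold change was 1.58 ± 0.35 (SE, adjusted p = 0.00808). EA3 had 1.88, 3.03, 0.528 and 0.989 CPM with DMSO and 4.99, 4.69, 1.04 and 10.28 CPM with alectinib, so that the groups overlapped although each day was higher with alectinib. Its log2 fold change was 1.56 ± 0.43 (SE, adjusted p = 0.0195), and without the EA3 libraries of day 5 it was 1.00 with an adjusted p of 0.0788. Per kilobase of exon, the mean Col1a1 level with alectinib was 48.1 times that of Col1a2 in EA3 and 0.217 times in EA2, and with the longest transcript as length these ratios were 22.9 and 0.103. The balance of the type I chains thus differed from line to line. In EA1 with DMSO no ratio can be given, because Col1a2 had no count.

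Type III collagen, a trimer of Col3a1 chains alone, is typical of soft tissue and early scars. In EA1, Col3a1 (chr1:45311538-45349706, + strand) stood at 1.15, 2.34, 0.748 and 1.16 CPM with DMSO and 44.2, 103, 168 and 254 CPM with alectinib. These groups lay far apart, and the lowest alectinib value belonged to day 1. EA2 had 0.269, 0.446, 0.301 and 0.601 CPM with DMSO and 0.889, 1.94, 0.451 and 3.03 CPM with alectinib, and the groups overlapped. EA3 had 0.0897, 0, 0 and 0 CPM with DMSO, a single count in all, and 0.370, 0.981, 0.188 and 24.1 CPM with alectinib. Nearly all of the EA3 signal was thus in the day 5 library, which was also the one high in fibroblast markers, and the part of those markers in this result was not tested. Alectinib over DMSO gave log2 fold changes of 6.50 ± 0.47 (SE, adjusted p = 4.29e-06) in EA1 and 1.85 ± 0.62 (SE, adjusted p = 0.0452) in EA2. From the counts, the EA3 level was 199-fold (95% counting interval 35.4 to 7901) higher with alectinib (adjusted p = 0.000433). Without the EA3 libraries of day 5 the EA3 fold change was 3.38 on the log2 scale and the call was lost (adjusted p = 0.0659). In EA2 the call was lost in 7 alternative analyses, among them DESeq2's Wald test (adjusted p = 0.128). The lines differed in this response (adjusted p = 0.0171), with EA2 minus EA1 at -4.65 (adjusted p = 0.00928) on the log2 scale, but without day 3 (adjusted p = 0.122) or day 5 (0.0708) the difference was not called.

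Type V collagen sits inside type I fibrils and sets where they begin and how thick they grow. Col5a1 (chr2:27886425-28039514, + strand) stood at 49.4, 47.6, 42.9 and 51.4 CPM with DMSO and 243, 439, 560.4 and 587 CPM with alectinib in EA1. In EA2 it stood at 79.9, 65.4, 78.2 and 95.8 CPM with DMSO and 207, 110.3, 294 and 290.3 CPM with alectinib. In EA3 it stood at 101, 70.8, 102 and 77.9 CPM with DMSO and 150.8, 176, 256 and 272 CPM with alectinib. No DMSO library of a line reached its lowest alectinib library, and all DMSO levels lay between 42.9 and 102 CPM. On the log2 scale the fold change was 3.19 ± 0.26 (SE, adjusted p = 4.99e-06) in EA1, 1.41 ± 0.25 (SE, adjusted p = 0.000982) in EA2 and 1.26 ± 0.24 (SE, adjusted p = 0.00183) in EA3. EA1 responded more than the others, with EA2 minus EA1 at -1.77 (adjusted p = 0.0103) and EA3 minus EA1 at -1.93 (adjusted p = 0.0141) on the log2 scale. The test over all lines was called (adjusted p = 0.00722), but not without day 3 (adjusted p = 0.08).

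Col5a2 (chr1:45374321-45503282, - strand), its usual partner, was nearly absent with DMSO. EA1 had 0.732, 1.11, 1.18 and 2.58 CPM with DMSO and 10.2, 17.9, 26.5 and 49.2 CPM with alectinib, with no overlap. EA2 had no count with DMSO and 0.198, 0.530, 0.677 and 3.48 CPM with alectinib. EA3 had 0.0897, 0, 0 and 0.330 CPM with DMSO and 0.924, 0.981, 0.847 and 2.49 CPM with alectinib. Every alectinib library of a line exceeded its DMSO libraries, and in EA2 and EA3 day 5 was the highest. The log2 fold change in EA1 was 4.14 ± 0.36 (SE, adjusted p = 2.55e-05). From the counts, Col5a2 was at least 16.5-fold higher in EA2 (adjusted p = 0.000248) and 14.2-fold (95% counting interval 4.60 to 71.3) higher in EA3 (adjusted p = 0.000756). Without day 5 the bound in EA2 was 4.15-fold and the EA3 ratio 24.96-fold, from 1 and 28 counts, and the EA3 call held without the EA3 libraries of day 5 (adjusted p = 0.00255). Per kilobase, Col5a1 still exceeded Col5a2 19.9-fold in EA1 and 208-fold in EA2 with alectinib. Col5a2 lies 24614 bases from Col3a1 on the same chromosome, on the other strand. Across the 8 libraries of EA1 the levels of the pair correlated with r = 0.969, a description over libraries that share treatment and day. Col5a3 (chr9:20770050-20815067, - strand), a further type V chain, was highest in EA1, at 21.1, 40.2, 15.7 and 67.0 CPM with DMSO and 12.4, 16.5, 31.7 and 41.9 CPM with alectinib, with overlapping groups and a log2 fold change of -0.45 (95% interval -1.73 to 0.84, adjusted p = 0.586). In EA2 its fold change was 0.02 (95% interval -1.82 to 1.86, adjusted p = 1) and in EA3 -1.11 (95% interval -3.40 to 1.18, adjusted p = 0.453), intervals that leave the direction undetermined.

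Type XI collagen is the cartilage counterpart of type V. Col11a1 (chr3:114030540-114220718, + strand) was nearly absent from EA1, with 7 counts over the DMSO libraries and 11 over the alectinib libraries. EA2 libraries had 25.9, 24.1, 35.4 and 43.6 CPM with DMSO and 166, 199, 571 and 498 CPM with alectinib. EA3 libraries had 1.70, 1.40, 6.20 and 1.48 CPM with DMSO and 32.4, 51.4, 112 and 26.5 CPM with alectinib. In both EA2 and EA3 the groups were well separated, and day 3 was the highest with alectinib. Measured within day, the log2 fold change was 3.32 ± 0.26 (SE, adjusted p = 3.75e-06) in EA2 and 4.42 ± 0.30 (SE, adjusted p = 1.57e-06) in EA3, beside 0.35 (95% interval -1.16 to 1.87, adjusted p = 0.723) in EA1. The difference between lines was called (adjusted p = 0.0257) but rested on few EA1 counts, and it was lost without day 2 (adjusted p = 0.0755), day 3 (0.065) or day 5 (0.159). Col11a2, a partner chain, was low in every line and was called in EA2 alone, at 2.42, 1.34, 1.40 and 1.12 CPM with DMSO and 5.83, 2.30, 6.77 and 4.38 CPM with alectinib and a log2 fold change of 1.59 ± 0.43 (SE, adjusted p = 0.0153). Whether Col11a2 responded differently between lines was tested and not called (adjusted p = 0.207).

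Col27a1 (chr4:63214004-63334991, + strand), a fibrillar chain of cartilage and other tissues, stood at 12.9, 10.5, 1.28 and 15.3 CPM with DMSO and 23.8, 25.96, 26.1 and 22.4 CPM with alectinib in EA1. For EA3 the levels were 1.70, 0.933, 0.528 and 1.98 CPM with DMSO and 6.93, 6.43, 7.72 and 15.8 CPM with alectinib. Both lines had higher values in each alectinib library than in any DMSO library. The log2 fold change was 2.82 ± 0.62 (SE, adjusted p = 0.00395) in EA3 and 1.58 ± 0.56 (SE, adjusted p = 0.0446) in EA1, and the EA1 call was lost in 8 of 12 alternative analyses, with adjusted p-values up to 0.121. Without the EA3 libraries of day 5, Col27a1 had a fold change of 2.75 in EA3 and was still called (adjusted p = 0.0196). In EA2 it had 3 counts over the DMSO libraries and 14 over the alectinib libraries, a ratio of 5.50-fold (95% counting interval 1.53 to 29.8). The edgeR test did not call Col27a1 in EA2 (adjusted p = 0.217), but did without day 3 (log2 fold change 3.63, adjusted p = 0.00799) and with no filter (0.0249). Col24a1 had 53 counts with DMSO and 10 with alectinib in EA2, and its fold change of -2.12 (95% interval -3.82 to -0.42, adjusted p = 0.0667) was not called there or in the other lines. Col2a1, the main chain of cartilage, had at most 50 counts in a library and was not tested.

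**Figure D2:**
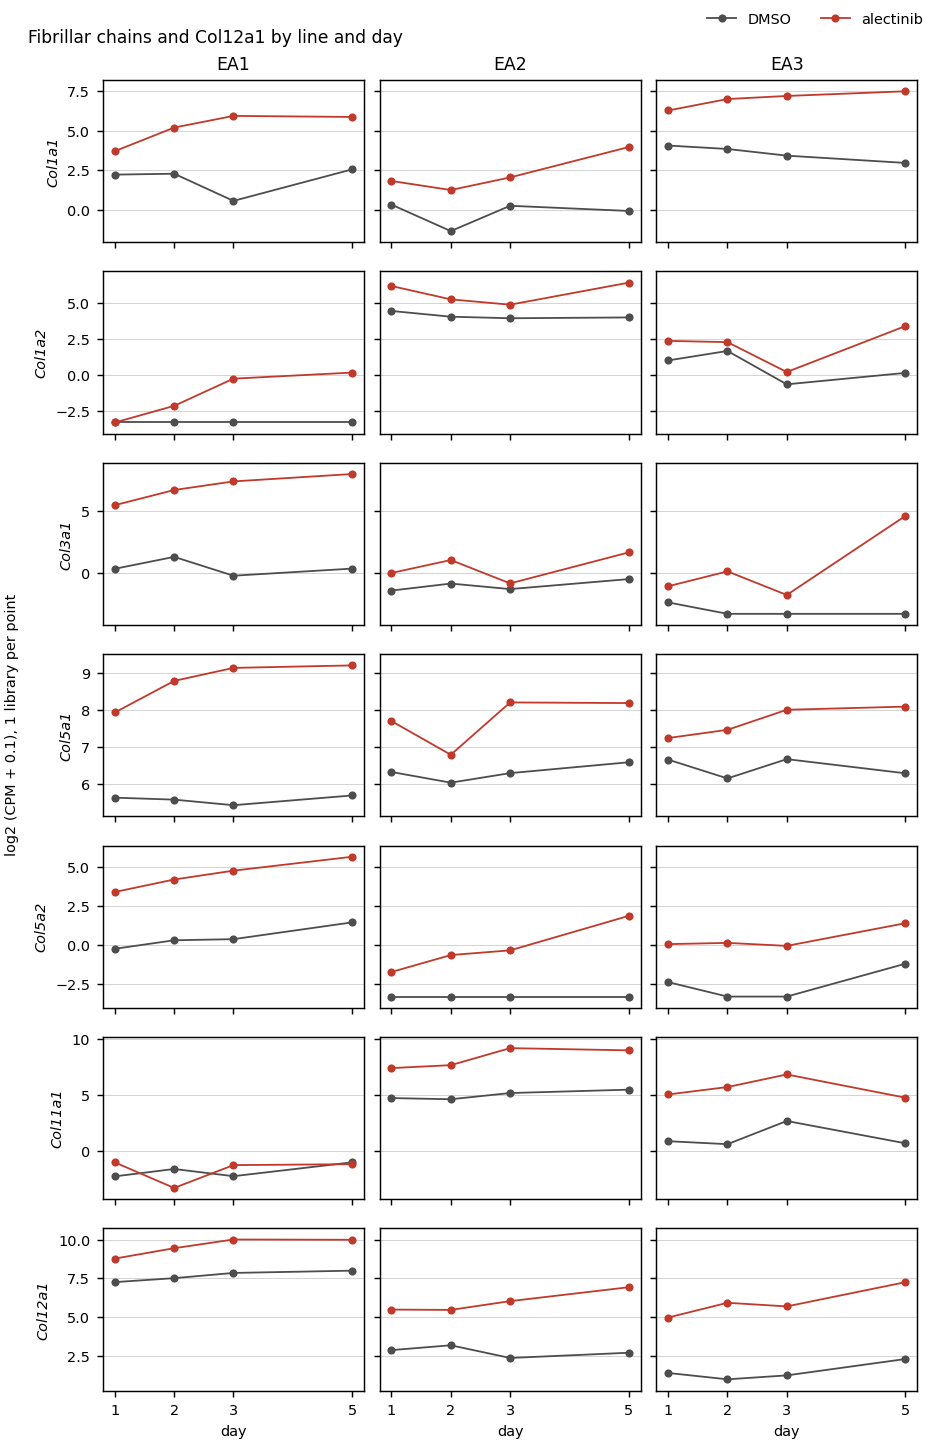
The level as log2 (CPM + 0.1) (y axis) of 6 fibrillar chains and Col12a1 is plotted by day (x axis) for each line, with DMSO in black, alectinib in red and 1 point per library. Col1a1, Col5a1 and Col5a2 lie higher with alectinib in all 3 lines, and Col3a1 in EA3 rises from 0.188 CPM on day 3 to 24.1 CPM on day 5.

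The basement membrane chains differed from line to line. Col4a1 and Col4a2 form the common type IV network, and their genes start within 22 overlapping bases of each other on opposite strands. Col4a1 (chr8:11198423-11312826, - strand) stood at 681, 609.8, 468 and 703 CPM with DMSO and 1590.3, 1944, 2314 and 2370.1 CPM with alectinib in EA1. For EA2 the levels were 193, 184, 268 and 306 CPM with DMSO and 177, 165, 277 and 238 CPM with alectinib. In EA3 it stood at 647, 491, 797 and 520.2 CPM with DMSO and 769, 872, 869.8 and 799 CPM with alectinib. The groups were separate in EA1 and overlapped in EA2 and EA3. Alectinib over DMSO gave log2 fold changes of 1.74 ± 0.17 (SE, adjusted p = 1.7e-05) in EA1, -0.15 (95% interval -0.52 to 0.21, adjusted p = 0.556) in EA2 and 0.46 (95% interval 0.09 to 0.82, adjusted p = 0.0541) in EA3. The EA3 value was called under library-size scaling (adjusted p = 0.0254), by DESeq2's Wald test (0.028) and without day 3 (0.0421).

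Col4a2 (chr8:11312805-11449287, + strand) stood at 403, 368, 384 and 479 CPM with DMSO and 894, 1014, 1164 and 1146 CPM with alectinib in EA1. EA2 had 175, 149, 307 and 308 CPM with DMSO and 150.0, 144, 304 and 202 CPM with alectinib, and EA3 had 369.7, 329, 659 and 351 CPM with DMSO and 373, 443, 556 and 364 CPM with alectinib. As for Col4a1, the groups were separate in EA1 and overlapped elsewhere, and day 3 was high in EA3. On the log2 scale the fold change was 1.37 ± 0.14 (SE, adjusted p = 2.49e-05) in EA1, beside -0.22 (95% interval -0.53 to 0.08, adjusted p = 0.283) in EA2 and 0.06 (95% interval -0.24 to 0.37, adjusted p = 0.77) in EA3. EA1 responded more than both other lines, since EA2 minus EA1 was -1.89 (adjusted p = 0.000959) for Col4a1 and -1.59 (adjusted p = 0.00094) for Col4a2, and EA3 minus EA1 was -1.28 (adjusted p = 0.0171) and -1.30 (adjusted p = 0.00597). Per kilobase, the ratio of Col4a1 to Col4a2 was 1.34 for DMSO and 1.73 for alectinib in EA1, then 0.898 and 0.949 for EA2 and 1.27 and 1.69 for EA3. The pair thus stayed within a 2-fold range of each other in these means. With the mean of each line removed, their levels correlated with r = 0.917 over the 24 libraries.

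The chains encoded by Col4a3 and Col4a4 form, with that of Col4a5, the type IV network of the kidney glomerulus and the lung alveolus. Their starts are 71 bases apart, in the interval printed above. In EA3, Col4a3 (chr1:82586921-82722059, + strand) stood at 5.65, 5.36, 8.05 and 3.30 CPM with DMSO and 55.5, 79.6, 78.5 and 21.5 CPM with alectinib. Col4a4 (chr1:82448423-82586849, - strand) stood at 5.20, 5.48, 7.65 and 1.65 CPM with DMSO and 41.1, 51.8, 51.9 and 17.4 CPM with alectinib in the same line. Both had no overlap between treatments, and for both the day 5 libraries were the lowest of their group. Measured within day, the log2 fold change was 3.31 ± 0.28 (SE, adjusted p = 8.81e-06) for Col4a3 and 3.07 ± 0.43 (SE, adjusted p = 0.000281) for Col4a4. Per kilobase, their ratio was 1.19 with DMSO and 1.54 with alectinib, and over the 8 EA3 libraries they correlated with r = 0.985. EA1 and EA2 had few counts of either, with 1 and 8 of Col4a3 over the DMSO and alectinib libraries of EA1 and 2 and 6 in EA2. A difference in response between lines was not called (adjusted p = 0.63 for Col4a3 and 0.0589 for Col4a4), though that of Col4a4 was called by DESeq2's Wald test (adjusted p = 0.00205) and with no filter (2.97e-05).

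Col4a5 (chrX:141475385-141689234, + strand), also paired head to head, with Col4a6, was the type IV chain that moved in EA2. There it stood at 60.4, 52.5, 179.5 and 159 CPM with DMSO and 278, 207, 505 and 294 CPM with alectinib, with separate groups and a log2 fold change of 1.64 ± 0.31 (SE, adjusted p = 0.0019). Without the day as a block the call was lost (adjusted p = 0.0639). EA1 had 27.5, 45.3, 35.8 and 91.8 CPM with DMSO and 49.1, 61.1, 88.3 and 101 CPM with alectinib, and EA3 had 16.5, 70.8, 189 and 194 CPM with DMSO and 67.6, 115, 184 and 196 CPM with alectinib. These groups overlapped, and the fold changes were 0.67 (95% interval 0.01 to 1.34, adjusted p = 0.106) in EA1 and 0.64 (95% interval -0.03 to 1.32, adjusted p = 0.133) in EA3. EA1 was called with the line fitted alone (adjusted p = 0.0476) and with no filter (0.0158), and EA3 with no filter (0.0208). A difference between lines was not called (adjusted p = 0.226), but was with no filter (0.00292). Col4a6, whose start lies 1308 bases away, had at most 7 counts in a library and was not tested.

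Type XVIII collagen carries the peptide endostatin at its C-terminal end. Col18a1 (chr10:77052178-77166548, - strand) stood at 649, 1043, 1209.6 and 1100.0 CPM with DMSO and 425, 411, 417 and 386 CPM with alectinib in EA3. In EA2 it stood at 481, 449.9, 819.7 and 748 CPM with DMSO and 483, 300.3, 355 and 125 CPM with alectinib. In EA1 it stood at 585, 626, 994 and 888 CPM with DMSO and 539, 500.3, 530.3 and 590.0 CPM with alectinib. The groups were separate in EA3, where all alectinib libraries were lower, and overlapped in EA1 and EA2. It fell in EA3 by a log2 fold change of -1.25 ± 0.31 (SE, adjusted p = 0.008) and in EA2 by -1.07 ± 0.32 (SE, adjusted p = 0.0264), beside -0.48 (95% interval -1.14 to 0.17, adjusted p = 0.237) in EA1. Without day 3 the EA3 call was lost (adjusted p = 0.0513), and the EA2 call was lost in 5 of 13 alternatives, among them leaving out day 5 (log2 fold change -0.60, adjusted p = 0.14). The lines did not differ by the test used (adjusted p = 0.423). Col15a1 (chr4:47208161-47313167, + strand), a related chain with the restin peptide, stood at 4.48, 5.20, 8.72 and 7.30 CPM with DMSO and 1.98, 0.354, 0.113 and 0.450 CPM with alectinib in EA2, and fell there by a log2 fold change of -3.24 ± 0.62 (SE, adjusted p = 0.00189), with separate groups. In EA1 it stood at 5.33, 13.4, 11.2 and 20.03 CPM with DMSO and 7.91, 18.2, 31.1 and 63.0 CPM with alectinib and in EA3 at 1.88, 5.36, 4.62 and 28.01 CPM with DMSO and 1.85, 1.85, 0.565 and 12.98 CPM with alectinib. Neither was called, with fold changes of 1.05 (95% interval 0.04 to 2.06, adjusted p = 0.0987) in EA1 and -1.32 (95% interval -2.45 to -0.20, adjusted p = 0.0687) in EA3, and the groups overlapped. EA1 was called with the line fitted alone (adjusted p = 0.0222), without day 1 (0.0302) and with no filter (0.00513). EA3 was called by DESeq2's Wald test (adjusted p = 0.0351), without day 1 (0.0107) and with no filter (0.000385). It was called with all 26 libraries too (0.032), but 2 of these resemble EA2. Without the EA3 libraries of day 5 the EA3 value was -1.43 and not called (adjusted p = 0.139). The lines differed in the Col15a1 response (adjusted p = 0.0125), with EA2 minus EA1 at -4.29 (adjusted p = 0.00711), although without day 2 (adjusted p = 0.0567), day 3 (0.0831) or day 5 (0.13) this was not called.

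**Figure D3:**
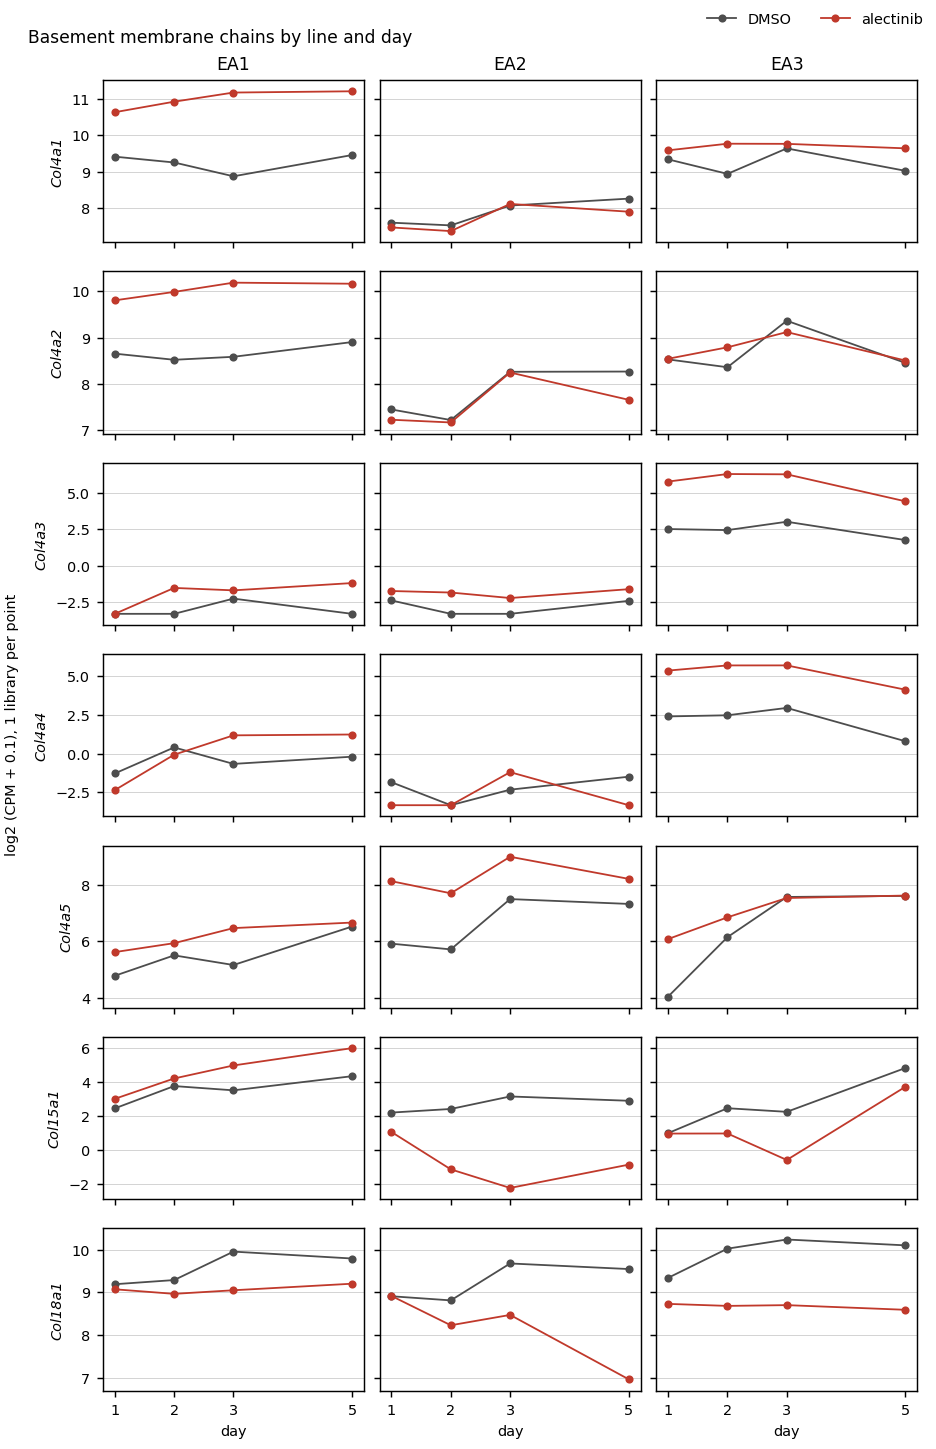
The level as log2 (CPM + 0.1) (y axis) of the 7 tested basement membrane chains is plotted by day (x axis) for each line, with DMSO in black, alectinib in red and 1 point per library. Col4a1 and Col4a2 separate by treatment in EA1, Col4a3 and Col4a4 in EA3, and Col18a1 lies lower with alectinib in EA3, at 386 to 425 CPM against 649 to 1209.6 CPM.

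Type VI collagen forms beaded microfilaments around cells, from Col6a1, Col6a2 and Col6a3 chains. Col6a1 (chr10:76708792-76726168, - strand) stood at 213, 347, 106 and 288 CPM with DMSO and 279.5, 614, 953 and 1314 CPM with alectinib in EA1. EA2 libraries had 25.7, 20.7, 59.5 and 58.6 CPM with DMSO and 202, 166, 585 and 224 CPM with alectinib. EA3 libraries had 44.9, 86.9, 142 and 391 CPM with DMSO and 56.6, 81.2, 124 and 450.4 CPM with alectinib. EA2 alone had separate groups, and in EA3 the later days were higher under both treatments. The log2 fold change was 1.63 ± 0.37 (SE, adjusted p = 0.00494) in EA1, 2.80 ± 0.38 (SE, adjusted p = 0.000148) in EA2 and 0.06 (95% interval -0.69 to 0.81, adjusted p = 0.91) in EA3. The difference was called (adjusted p = 0.0153), with EA3 minus EA2 at -2.74 (adjusted p = 0.0129) on the log2 scale, but the test over all lines was not called without day 2 (adjusted p = 0.0626) or day 3 (0.0583). It was also not called with all 26 libraries (adjusted p = 0.159) or without the day as a block (0.173), where the EA1 call was lost too (0.0551).

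Col6a2 (chr10:76595762-76623630, - strand), 85161 bases away on the same strand, stood at 67.2, 136, 35.0 and 67.0 CPM with DMSO and 80.7, 233, 411 and 632 CPM with alectinib in EA1. For EA2 the levels were 1.97, 1.04, 3.21 and 5.33 CPM with DMSO and 20.5, 22.3, 70.3 and 45.6 CPM with alectinib, and in EA3 at 9.42, 17.3, 17.3 and 75.8 CPM with DMSO and 7.58, 13.3, 16.4 and 152 CPM with alectinib. The pattern was that of Col6a1, with separate groups in EA2 and a high day 5 in EA3 under either treatment. Alectinib over DMSO gave log2 fold changes of 1.96 ± 0.52 (SE, adjusted p = 0.0112) in EA1, 3.75 ± 0.56 (SE, adjusted p = 4e-04) in EA2 and 0.09 (95% interval -0.96 to 1.13, adjusted p = 0.911) in EA3. The EA1 call was lost without day 3 (adjusted p = 0.11), without day 5 (0.0647) and with all 26 libraries (0.0649), and without the EA3 libraries of day 5 the EA3 value was -0.26 (adjusted p = 0.771). The difference between lines was called (adjusted p = 0.0251), but not without day 2 (adjusted p = 0.0725) or day 3 (0.128). It was also not called with all 26 libraries (adjusted p = 0.204) or without the day as a block (0.241). Over the 24 libraries, with line means removed, Col6a1 and Col6a2 correlated with r = 0.976. Per kilobase, the ratio of Col6a1 to Col6a2 was 5.96, 27.1 and 10.6 in the DMSO means of EA1, EA2 and EA3, and with the longest transcript as length 3.75, 17.1 and 6.66, so that the levels were far from equal.

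Col6a3 (chr1:90765923-90843971, - strand), the long chain of type VI, moved with the pair in EA1 but not in EA2. It stood at 2.09, 3.34, 3.21 and 19.1 CPM with DMSO and 3.57, 22.8, 58.2 and 61.4 CPM with alectinib in EA1, 3.49, 2.53, 4.01 and 4.12 CPM with DMSO and 2.07, 1.24, 1.02 and 1.46 CPM with alectinib in EA2 and 3.32, 1.40, 4.75 and 6.26 CPM with DMSO and 1.11, 0.218, 0.471 and 6.17 CPM with alectinib in EA3. It rose in EA1, with a log2 fold change of 2.37 ± 0.52 (SE, adjusted p = 0.00399), though the groups overlapped through the DMSO library of day 5. In EA2, where Col6a1 and Col6a2 rose, all 4 alectinib libraries were below all DMSO libraries, but the fold change of -1.30 (95% interval -2.49 to -0.10, adjusted p = 0.109) was not called, except with the line fitted alone (adjusted p = 0.0278) and with no filter (0.00328). In EA3 the fold change was -1.58 (95% interval -2.83 to -0.33, adjusted p = 0.0524), and without its libraries of day 5 it was -2.39 and called (adjusted p = 0.0177). It was also called with DESeq2 size factors (0.0479), by DESeq2's Wald test (0.00919) and with no filter (0.000204). With all 26 libraries it was called too (0.0217), but these include the pair labelled day 7 that resembles EA2. The lines differed (adjusted p = 0.0112), with EA2 minus EA1 at -3.67 (adjusted p = 0.0135) and EA3 minus EA1 at -3.95 (adjusted p = 0.0232), though not without day 2 (adjusted p = 0.07) or day 3 (0.0796). Per kilobase, the ratio of Col6a1 to Col6a3 went from 31.7 with DMSO to 555 with alectinib in EA2, and from 93.9 to 59.1 in EA1. Over the 8 libraries of a line, Col6a1 and Col6a3 correlated with r = 0.858 in EA1, -0.791 in EA2 and 0.563 in EA3, a description of libraries that share treatment and day. Of the alternative chains, Col6a4 and Col6a6 had at most 3 counts in a library and Col6a5 at most 6.

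**Figure D4:**
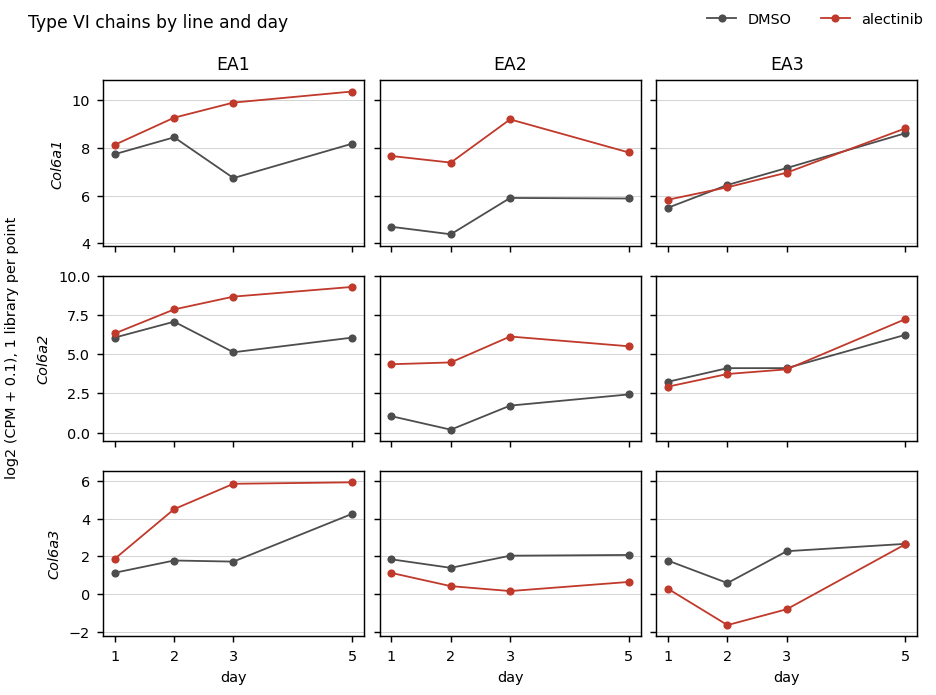
The level as log2 (CPM + 0.1) (y axis) of Col6a1, Col6a2 and Col6a3 is plotted by day (x axis) for each line, with DMSO in black, alectinib in red and 1 point per library. Col6a1 and Col6a2 lie higher with alectinib in EA2 while Col6a3 lies lower there, and in EA3 Col6a1 reaches 391 CPM with DMSO and 450.45 CPM with alectinib on day 5.

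Type XII collagen binds along the surface of type I fibrils and was the one non-fibrillar chain called in every line. Col12a1 (chr9:79598991-79718831, - strand) stood at 152, 182, 229.7 and 254 CPM with DMSO and 437, 695, 1026 and 1014 CPM with alectinib in EA1. In EA2 it stood at 7.16, 8.92, 5.01 and 6.36 CPM with DMSO and 44.4, 43.8, 65.0 and 121 CPM with alectinib. For EA3 the levels were 2.51, 1.87, 2.24 and 4.78 CPM with DMSO and 31.1, 60.3, 51.3 and 152 CPM with alectinib. Treatments did not overlap in any line, and day 5 was the highest alectinib library in EA2 and EA3. On the log2 scale the fold change was 1.90 ± 0.27 (SE, adjusted p = 0.000213) in EA1, 3.22 ± 0.30 (SE, adjusted p = 1.29e-05) in EA2 and 4.53 ± 0.33 (SE, adjusted p = 2.97e-06) in EA3. The line with the highest DMSO level had the smallest fold change, and EA3 minus EA1 was 2.62 (adjusted p = 0.0063) on the log2 scale. The test over all lines was called (adjusted p = 0.00618), but not without day 3 (adjusted p = 0.0648).

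Col16a1 (chr4:130047840-130099283, + strand), another fibril-associated chain, rose in EA1 from 0.314, 0.446, 0.107 and 1.68 CPM to 0.772, 1.71, 2.59 and 2.60 CPM, with a log2 fold change of 1.72 ± 0.45 (SE, adjusted p = 0.0107) and overlapping groups. That call was lost in 4 alternatives, with adjusted p-values of 0.0514 to 0.0658. EA2 libraries had 13.3, 9.36, 11.9 and 13.4 CPM with DMSO and 30.3, 18.2, 29.4 and 14.4 CPM with alectinib, with a fold change of 0.89 (95% interval 0.23 to 1.56, adjusted p = 0.0502), and in EA3 at 8.70, 18.5, 13.9 and 39.4 CPM with DMSO and 14.1, 18.9, 23.8 and 44.8 CPM with alectinib, with 0.42 (95% interval -0.24 to 1.07, adjusted p = 0.313). The EA2 groups did not overlap, and EA2 was called by DESeq2's Wald test (adjusted p = 0.023), with the line fitted alone (0.0262), without day 5 (0.0231) and with no filter (0.01). Col7a1 (chr9:108953586-108984875, + strand), the anchoring fibril of epithelia, stood at 29.8, 29.4, 26.4 and 35.8 CPM with DMSO and 54.6, 39.0, 71.8 and 27.3 CPM with alectinib in EA3 and was not called in any line, with fold changes of -0.54 (95% interval -1.16 to 0.07, adjusted p = 0.156) in EA1, 0.55 (95% interval -0.05 to 1.16, adjusted p = 0.178) in EA2 and 0.59 (95% interval 0.03 to 1.15, adjusted p = 0.0993) in EA3. Without the EA3 libraries of day 5 the EA3 value was 0.91 and called (adjusted p = 0.0209). It was called with all 26 libraries too (0.0415), but these include the pair labelled day 7 that resembles EA2. Col8a1 (chr16:57624258-57754737, - strand), a short chain of vessel and corneal matrix, stood at 52.3, 56.5, 85.6 and 101 CPM with DMSO and 87.01, 66.3, 202 and 56.8 CPM with alectinib in EA2, 38.1, 63.3, 129 and 104 CPM with DMSO and 35.8, 50.2, 82.9 and 80.7 CPM with alectinib in EA3 and at most 2.71 CPM in EA1, with fold changes of 0.35 (95% interval -0.51 to 1.22, adjusted p = 0.562) in EA2 and -0.36 (95% interval -1.20 to 0.49, adjusted p = 0.516) in EA3. Col20a1 (chr2:180986535-181018363, + strand), which reached 20.2 CPM in the EA2 alectinib library of day 3, had fold changes of 1.65 (95% interval 0.23 to 3.06, adjusted p = 0.0855) in EA2 and -1.13 (95% interval -2.73 to 0.47, adjusted p = 0.266) in EA3. In EA2, Col20a1 was called with the line fitted alone (adjusted p = 0.0229) and with no filter (0.0029), and its difference between lines with no filter (0.00294). In the fit of the 24 libraries with the filter, Col7a1, Col8a1 and Col20a1 were not called in any line. This does not show that the levels were the same under both treatments.

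The other 18 chain genes were not tested. Of these, 8 had at most 3 counts in every library: Col6a4, Col6a6, Col9a1, Col9a2, Col10a1, Col19a1, Col25a1 and Col26a1. Several of the remainder had counts that lay mostly under 1 treatment. Col8a2 had 3 counts over the EA2 DMSO libraries and 66 over the alectinib libraries, a ratio of 25.9-fold (95% counting interval 8.49 to 129), which was 75.03-fold without day 1 and 16.2-fold without day 3. Col14a1, a fibril-associated chain, had 2 and 49 counts in EA1, a ratio of 21.8-fold (95% counting interval 5.71 to 185), and 1 and 31 in EA3. Day 5 held 41 of the 49 in EA1, and without it the counts were 2 and 8, a ratio of 3.96-fold. In EA3 the day 5 alectinib library gave 2.49 CPM of Col14a1, the library also high in fibroblast markers, and without day 5 the counts were 1 and 8. Col17a1, the hemidesmosome chain of epithelia, had 2 and 20 counts in EA1, a ratio of 8.88-fold (95% counting interval 2.16 to 78.4), which ran from 5.44-fold to 14.7-fold with each day left out. In the other direction, Col13a1 in EA3 had 15 counts with DMSO and none with alectinib, at least 5.97-fold lower, and Col6a5 in EA2 had 19 and none, at least 5.38-fold lower. These intervals and bounds cover counting error only, and the ratios have no test over days.

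Summed over all chains, CPM per kilobase of exon gives the makeup of the collagen mRNA, in which genes of different length can be set side by side. The total was 356 ± 48.1 CPM per kilobase with DMSO and 889 ± 260.3 with alectinib in EA1 (mean ± SD, n = 4). In EA2 it was 212 ± 66.4 and 311 ± 116, and in EA3 383 ± 99.0 and 387 ± 74.0. EA1 gained the most, while in EA3 the means differed by less than 1 SD. Basement membrane chains made up 74.4% ± 7.23 of the total with DMSO and 61.5% ± 10.2 with alectinib in EA1, 82.1% ± 1.40 and 50.3% ± 7.67 for EA2, then 81.7% ± 8.01 and 70.3% ± 11.7 for EA3. Fibrillar chains made up 3.66% ± 0.708 with DMSO and 9.15% ± 1.49 with alectinib for EA1, 7.04% ± 1.53 and 19.96% ± 6.39 for EA2, then 3.63% ± 1.26 and 13.2% ± 1.70 for EA3. The fibrillar share was thus at least 2 times as high in the alectinib mean as in the DMSO mean of each line, yet basement membrane chains remained the largest share in all 3. The other chains went from 10.9% ± 0.527 to 29.7% ± 5.84 in EA2, where Col6a1 alone held a mean of 4.22% with DMSO and 20.3% with alectinib. The shares are descriptions and were not tested.

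**Figure D5:**
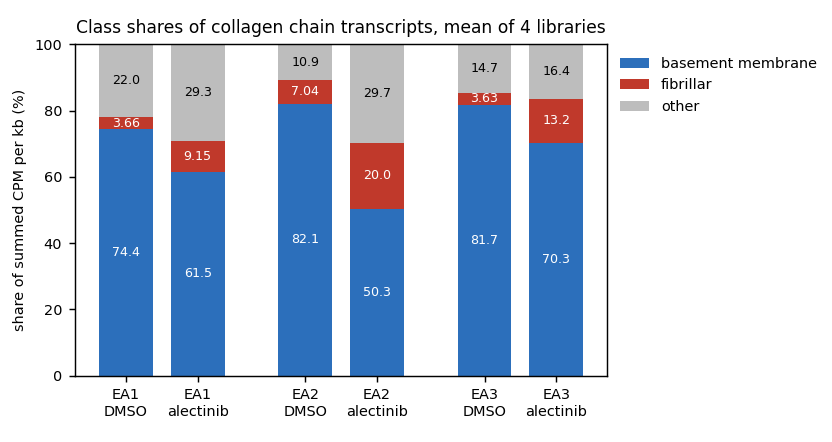
The share in percent of the summed chain mRNA (CPM per kilobase of exon, y axis) is stacked for basement membrane (blue), fibrillar (red) and other (grey) chains in each line and treatment, as the mean of 4 libraries without error bars. The fibrillar mean goes from 3.66% to 9.15% in EA1, from 7.04% to 19.96% in EA2 and from 3.63% to 13.2% in EA3.

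With DMSO the lines already differed in which chains they made. Of 23 chain genes tested in the 12 DMSO libraries, 5 were called higher and 9 lower in EA2 than in EA1 (20.5% and 20.3% of all genes tested), 9 higher and 4 lower in EA3 than in EA1 (17.5% and 15.2%), and 10 higher and 3 lower in EA3 than in EA2 (19.3% and 17.1%). Col12a1 was highest in EA1, at 205 ± 46.0 CPM (mean ± SD, n = 4) against 6.86 ± 1.63 CPM in EA2 and 2.85 ± 1.31 CPM in EA3. On the log2 scale, EA2 minus EA1 was -4.92 ± 0.28 (adjusted p = 7.24e-08) and EA3 minus EA1 was -6.20 ± 0.30 (adjusted p = 5.31e-08). Col5a3 was also highest in EA1, with EA2 minus EA1 at -4.19 ± 0.50 (adjusted p = 3.92e-05), and Col6a2 had EA2 minus EA1 at -4.84 ± 0.58 (adjusted p = 3.88e-05). Col1a2 and Col11a1 were highest in EA2, at 17.1 ± 2.93 CPM and 32.2 ± 9.08 CPM. Col1a2 was at least 204-fold higher in EA2 and at least 20.3-fold higher in EA3 than in EA1, where it had no count. EA3 minus EA2 was -3.67 ± 0.37 (adjusted p = 1.17e-05) for Col11a1. Col4a3 was highest in EA3, at 5.59 ± 1.95 CPM, which was 203-fold (95% counting interval 36.0 to 8055) higher than EA1, and Col7a1 had EA3 minus EA1 at 2.39 ± 0.28 (adjusted p = 4.36e-05). Col8a1 and Col16a1 were high in both EA2 and EA3, with EA2 minus EA1 at 5.78 ± 0.50 (adjusted p = 2.74e-06) and 4.48 ± 0.49 (adjusted p = 1.88e-05), and EA3 minus EA2 at 0.18 ± 0.37 (adjusted p = 0.741) and 0.54 ± 0.37 (adjusted p = 0.274). Col27a1 was high in EA1 and nearly absent from EA2, with 128-fold (95% counting interval 43.5 to 625) more in EA1.

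Over days, chain levels moved little that the tests could call. The alectinib effect per doubling of days was called for 0 of 26 chain genes, in whichever line, by the same edgeR test, where 0.021%, 0% and 0.0491% of all genes were called in EA1, EA2 and EA3. At an unadjusted p under 0.05 there were 6 higher and 0 lower chain genes in EA1, 1 higher and 4 lower in EA2, and 4 higher and 2 lower in EA3, where of all genes 5.38% and 6.16%, 1.92% and 4.11%, and 6.5% and 6.65% were higher and lower. In the DMSO libraries, 0 of 23 were called in EA1 (1.83% of all genes) and 0 in EA2 (0%), with 5 higher and 1 lower and 2 higher and 0 lower at an unadjusted p under 0.05, where of all genes 8.86% and 8.24%, and 1.15% and 0.761% were. In EA3, 5 of 23 were called higher with days in DMSO, against 3.17% of all genes. These were Col15a1, at 1.60 ± 0.28 (adjusted p = 0.0113) log2 units per doubling of days, Col4a5 at 1.66 ± 0.34 (adjusted p = 0.0192), Col6a1 at 1.33 ± 0.29 (adjusted p = 0.024), Col6a2 at 1.24 ± 0.33 (adjusted p = 0.049) and Col5a3 at 2.37 ± 0.55 (adjusted p = 0.0315). None was called when day 1, 2 or 5 was left out, and 7 were when day 3 was, where 13.3% of all genes were. In the alectinib libraries 0 of 25 were called in each line, against 0%, 0.0593% and 0.549% of all genes, and at an unadjusted p under 0.05 there were 15 higher and 0 lower in EA1, 3 higher and 2 lower in EA2, and 10 higher and 0 lower in EA3, where of all genes 4.6% and 2.68%, 5.57% and 5.45%, and 9.97% and 5.41% were. Without day 3, calls with alectinib numbered 1, 3 and 7 for EA1, EA2 and EA3, against 0.259%, 0.961% and 6.81% of all genes, and EA1 with DMSO had 2 against 5.86%. Col1a1 in EA1, for example, had a slope of 0.99 ± 0.29 (adjusted p = 0.44) with alectinib, which did not pass the adjustment.

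Collagen chains need a set of enzymes and chaperones to fold, cross-link and leave the cell, and 30 of 33 such genes were tested. Of these 13 were called higher and 0 lower in EA1, 7 higher and 3 lower in EA2, and 12 higher and 6 lower in EA3, beside 19% and 14.6%, 13% and 11.3%, and 17.5% and 15.1% of all genes tested, with medians of 0.52, 0.37 and 0.45 on the log2 scale against 0.06, 0 and 0.07 over all genes. P4ha3, a prolyl hydroxylase subunit, rose in all 3 lines, by log2 fold changes of 2.80 ± 0.58 (SE, adjusted p = 0.00301) in EA1, 3.02 ± 0.58 (SE, adjusted p = 0.0023) in EA2 and 2.35 ± 0.57 (SE, adjusted p = 0.00728) in EA3. Sparc, a matrix protein that binds collagen, rose by 2.22 ± 0.23 (SE, adjusted p = 2.12e-05) in EA1, 1.498 ± 0.22 (SE, adjusted p = 0.000325) in EA2 and 1.89 ± 0.23 (SE, adjusted p = 7.88e-05) in EA3. Serpinh1, the collagen chaperone HSP47, had smaller fold changes of 0.61 ± 0.17 (SE, adjusted p = 0.0149), 0.44 ± 0.17 (SE, adjusted p = 0.0798) and 0.57 ± 0.17 (SE, adjusted p = 0.0211), of which that of EA2 was not called. The EA1 call of Serpinh1 was lost without day 1 (adjusted p = 0.0665), day 2 (0.0551) or day 3 (0.0713), and that of EA3 in 5 alternatives, among them without its libraries of day 5 (0.38, adjusted p = 0.135). Lox, a cross-linking oxidase, had 1.85 ± 0.73 (SE, adjusted p = 0.0672), 1.77 ± 0.46 (SE, adjusted p = 0.0129) and 1.86 ± 0.40 (SE, adjusted p = 0.00315) in the same order, of which that of EA1 was not called. The EA2 call of Lox was lost without day 3 (adjusted p = 0.0591), without day 5 (1.18, adjusted p = 0.0879) and without the day as a block (0.0586), and the EA3 call without the block (0.104), while EA1 was called in 4 alternatives, with adjusted p-values of 0.0222 to 0.0457. The prolyl hydroxylase subunits P4ha1 and P4ha2 did not follow P4ha3 and, in EA3, were among the 6 called lower. Of 10 collagen receptor genes 7 were tested, with 2 higher and 1 lower in EA1, 3 higher and 2 lower in EA2, and 4 higher and 0 lower in EA3, and medians of 0.64, 0.13 and 0.60. Ddr1, a receptor tyrosine kinase that binds collagen, rose by 1.02 ± 0.18 (SE, adjusted p = 0.000799), 1.30 ± 0.18 (SE, adjusted p = 0.000159) and 1.00 ± 0.17 (SE, adjusted p = 0.000892), and Itga11, an integrin chain for fibrillar collagen, by 5.45 ± 0.50 (SE, adjusted p = 8.72e-06), 6.51 ± 0.60 (SE, adjusted p = 1.13e-05) and 3.29 ± 0.55 (SE, adjusted p = 0.000646). Ddr2, a relative of Ddr1, had 0.65 ± 0.30 (SE, adjusted p = 0.103), -0.78 ± 0.30 (SE, adjusted p = 0.0773) and 1.08 ± 0.36 (SE, adjusted p = 0.0337), of which that of EA3 alone was called, and that call was lost in 7 of 13 alternatives, with adjusted p-values up to 0.289 and a fold change down to 0.55, while EA2 was called lower by DESeq2's Wald test (adjusted p = 0.0406) and with no filter (0.00219). Of the smooth muscle markers, 6 were tested, and of these, EA1 had 5 called higher, EA2 had 3, and EA3 had 3 and 1 called lower, against the shares of all genes given above. Acta2, smooth muscle actin, stood at 4.39, 5.68, 1.07 and 2.33 CPM with DMSO and 462, 564, 470.4 and 688 CPM with alectinib in EA1, and at 2.51, 2.08, 0.702 and 0.687 and 48.3, 375, 124 and 1299.9 CPM in EA2. Smtn, the member with the most counts under DMSO, was lower with alectinib on each day of each line, at 84.0, 123, 258 and 490.2 CPM and 55.3, 51.6, 106 and 26.9 CPM in EA3, where alone it was called lower. Summed, the 7 markers ran from 118 to 470.0 CPM (median 168) with DMSO and 722 to 1084 CPM (median 807) with alectinib in EA1, 109 to 149.8 CPM (median 128) and 116 to 1395 CPM (median 319) in EA2, and 84.3 to 491 CPM (median 191) and 58.2 to 129.7 CPM (median 60.8) in EA3. Their part in the collagen results was not tested.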

How the data were processed

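RNA sequencing of polyadenylated RNA (TruSeq stranded mRNA kit, paired reads) was used for all 26 libraries. Per the labels and the study's methods, the authors checked reads with FastQC, trimmed them with bbduk, mapped them to mm10 with STAR and deposited raw counts per gene from its counter. The annotation release and the strand column are not given in the sources used here, so overlapping neighbours such as Col4a1 and Col4a2 may share a few reads. The table has 55415 rows, of which 24 hold only a number and took 0.129% to 0.201% of the counts of a library. These rows entered neither library sizes nor tests, and 0 columns had no sample. The table holds no columns of the authors' own comparisons.

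Counts were analysed with edgeR 4.0.16 in R 4.3.3 (TMM, filterByExpr by line and treatment, robust quasi-likelihood test), with 12 blocks of line and day and 1 alectinib coefficient per line, over 24 libraries. Alternatives used DESeq2 1.42.0, and figures were drawn with matplotlib 3.10.9 in Python 3.11.15. Days are labelled and shared by DMSO and alectinib, so the day was kept as a block. Deviations of same-day libraries from their group means correlated between -0.300 and 0.549. Further fits covered slopes on log2 day and, with DMSO only, differences from line to line. CPM was scaled by TMM and, for levels compared between genes, divided by the union of exons in kilobases (GENCODE vM21). A fold against 0 counts used a floor of 3 counts over the 4 libraries, and ratios of 1 to 3 counts have exact 95% binomial intervals. Both cover counting error only. Scripts were tested on simulated data.

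The members, the biosynthesis, receptor and marker lists and the alternatives were chosen with earlier results of these data known. Chain genes were described singly if they passed the filter and reached 10 CPM in any library, were called in all 3 lines or differed between lines, or were partners in a trimer or gene pair. Serpinh1, Lox, Ddr1, Ddr2 and list genes called in all 3 lines were named as well. Col11a2, Col24a1, Col2a1 and the untested chains are given beyond that rule, after their values were seen. Leaving out the EA3 libraries of day 5, and counting only genes that pass the filter with DMSO alone, were also chosen after seeing the data.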

Additional observations from a re-analysis of the deposited data

Results flagged for a closer look

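Of 122 groups of 4 libraries, 14 held a library far from the other 3, by a gap to the nearest library that is wide against the range of the group. A rate of about 1 in 20 would hold for 4 replicates with a normal spread. CPM on 4 different days need not have that spread, so the count of 14 cannot be read against this rate. The same count over all genes was not made. The part of any cause was not tested.

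In EA3 with alectinib the day 5 library was the one apart for 6 chains. Col3a1 stood at 24.13 CPM there and at most 0.9815 CPM in the other libraries of the group. Col5a2 stood at 2.489 CPM, Col6a2 at 152 CPM, Col6a3 at 6.168 CPM, Col15a1 at 12.98 CPM and Col27a1 at 15.8 CPM. This library also had the highest summed fibroblast markers of EA3, at 87.8 CPM. In EA3 with DMSO the day 5 library was apart for Col6a2, at 75.79 CPM, and for Col15a1, at 28.01 CPM, and the day 3 library for Col4a2, at 659 CPM, and for Col11a1, at 6.201 CPM. In EA2 with alectinib, day 5 was apart for Col1a1, at 15.62 CPM, and Col5a2, at 3.484 CPM, and day 3 for Col6a1, at 584.9 CPM. In EA1 with DMSO, day 5 was apart for Col6a3, at 19.13 CPM.

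The alectinib effect differed between EA1, EA2 and EA3 for 10 of 26 chain genes by edgeR's quasi-likelihood test, against 6.84% of all genes tested. Over the 23 chain genes that pass the filter with DMSO alone, which leaves out Col3a1, it differed for 9, against 7.13% of all genes. The adjusted p was 0.00139 for Col4a2, 0.00165 for Col4a1, 0.00618 for Col12a1, 0.00722 for Col5a1, 0.0112 for Col6a3, 0.0125 for Col15a1, 0.0153 for Col6a1, 0.0171 for Col3a1, 0.0251 for Col6a2 and 0.0257 for Col11a1. Without day 3 the differences of Col4a1 and Col4a2 were called and the other 8 were not.

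In the libraries labelled EA3 day 7, which entered none of the comparisons, 1 alternative with all 26 libraries excepted, and correlated more with EA2 than with EA3, 14 of 25 chain genes with at least 10 counts were at least 2-fold higher in the alectinib library than in the DMSO library, where 17.6% of the 12934 such genes were. Another 4, Col4a2, Col6a3, Col15a1 and Col18a1, were at least 2-fold lower, where 15.1% of all were. With 1 library each, no test was possible.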

How the results depend on the processing

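Of 53 calls among the named genes and lines, 36 were kept under every alternative that tested them, 17 were lost at least once and 0 changed sign. With no filter on low counts, the chain genes called lower numbered 1, 4 and 4 for EA1, EA2 and EA3 (6.78%, 5.73% and 6.68% of all genes), the effect per doubling of days gave 2 in EA2 (0.0629%), levels over days gave 3 in EA1 and 9 in EA3 with DMSO (2.73% and 4.96%) and 2 in EA2 with alectinib (0.179%), and EA3 against EA1 gave 20 (15.6%). With at least 10 counts required in every library, which tests fewer members, 5, 4 and 2 were called higher in EA1, EA2 and EA3, 1 lower in EA2, 2 higher in all lines, 5 differed between lines, 3 rose over days in EA3 with DMSO, and 5, 3 and 6 differed in the comparisons of DMSO lines. The share of all genes called at this setting is not given here, so these counts cannot be set against it. Chain genes called lower in EA3 were 2 with DESeq2 size factors, 3 by DESeq2's Wald test, 3 with all 26 libraries and 2 without the EA3 libraries of day 5, and in EA2 1 with all 26. In the fit of the 24 libraries with the filter they were 1 of 26 in EA3 and 2 of 26 in EA2, where 15.1% and 11.3% of all genes tested were. The share of all genes is not given here for these alternatives. With each line fitted alone, 3 were higher in all lines, as Col1a2, Col3a1 and Col5a2 were then not tested in every line. Without the day as a replicate block, 4 chain genes differed between lines instead of 10, and 10, 8 and 9 were called higher in EA1, EA2 and EA3. How the share of all genes called moved without the block is not given here. With the longest transcript as length, basement membrane chains made up 80.61% and other chains 11.88% in EA2 with DMSO.

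Leaving out 1 day at a time, the count called lower ran from 1 to 2 in EA2 and from 0 to 3 in EA3, the differences between lines from 2 to 10, and levels over days from 0 to 2 in EA1 and 0 to 7 in EA3 with DMSO, and from 0 to 1, 0 to 3 and 0 to 7 in EA1, EA2 and EA3 with alectinib. The cause of these shifts was not tested. Apart from the slopes without day 3 above, the share of all genes called in these fits is not given here. Low counts limit Col1a2 in EA1, Col5a2 in EA2 and EA3, and Col4a3 in EA1 and EA2.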
